A study of Homo sapiens with 22 samples.

Results

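HepG2, a human liver cancer cell line that makes albumin and other plasma proteins, was examined with and without knockdown of COP1. The members are the 8 arrays, of 22 in the series, whose titles name this line. They comprise 4 arrays of HepG2 cells transfected with COP1 siRNA and 4 arrays of HepG2 cells transfected with a negative control siRNA. Both groups were grown in DMEM/F-12 with fetal bovine serum and received 15 nM siRNA for 48 h, so the controls share the transfection and the dose. The remaining arrays hold the same comparison in the liver cancer lines Huh7 (6 arrays) and Hep3B (8 arrays). Trizol-extracted RNA, copied into biotin-labelled cRNA, was read on Illumina Ref-8 v3 bead arrays. The results rest on 1 cell line and 1 COP1 siRNA, whose sequence the sources used here do not give. The labels do not say whether the replicates were separate cultures, so a p-value here reflects sample-to-sample spread that may be technical.

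COP1 is an E3 ubiquitin ligase of the RING class. It works with DET1, DDB1 and CUL4-type cullins, and Tribbles pseudokinases bring it some of its substrates. Described substrates in mammals include the transcription factors JUN, ETV4, ETV5 and C/EBPα and the lipid enzymes encoded by ACACA and PNPLA2. The ligase acts on proteins and the arrays measure RNA, so changes in protein stability are outside these measurements.

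The question for HepG2 was which RNAs differed between COP1 siRNA and control siRNA cells, judged against the spread of this line's own arrays. The deposited value of a probe is a background-subtracted, quantile-normalized intensity on a linear scale, given here as intensity in arbitrary units. A probe with a value above 21.8 counted as above background, and 12620 to 12642 probes did so on the 8 arrays. Fold changes are log2 differences of COP1 siRNA minus control siRNA after a normexp correction with an offset of 50, with their standard error (SE) and a Benjamini-Hochberg adjusted p from limma over 10714 genes. The offset makes the changes of dim genes look smaller than they are. Of the 10714 genes, 3635 (33.9%) had an adjusted p under 0.05 and are called changed. There were 1838 rises (17.2%) and 1797 falls (16.8%), so about as many genes moved up as down. Large changes were mostly falls, with 166 genes down and 50 up by at least 1 on the log2 scale. For 3343 genes (31.2%) the 4 COP1 siRNA arrays did not overlap the 4 control arrays. The median log2 fold change over all genes was 0.03. The root mean square deviation (log2) of an array around its group was 0.205 for COP1 siRNA replicate 2 and 0.130 to 0.152 for the other arrays. That replicate also lay apart on the second principal component, which held 11.8% of the variance, while the first held 62.4% and separated the siRNA groups. Without replicate 2 of the COP1 siRNA group, 3495 genes were changed.

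The defining RNAs of hepatocytes were present. Of 12 hepatocyte markers on the array, 11 were above background on all 8 arrays and FGB on 6. Their summed intensity was 174821 to 179782 after COP1 siRNA and 185840 to 192769 after control siRNA. ALB, the albumin gene, read 27018, 27325, 24863 and 27929.8 units in COP1 siRNA replicates 1 to 4, against 28818, 29952, 29529.6 and 31091 units in control siRNA replicates 1 to 4. Its log2 fold change of -0.16 ± 0.10 did not pass (adjusted p = 0.24). Of 8 fibroblast and stellate markers 4, including the collagen genes COL1A2 and COL3A1, were above background on no array and 3, ACTA2, PDGFRA and PDGFRB, on all 8. Of 5 endothelial markers 3 were above background on no array and 0 on all 8. Of 7 leukocyte markers 2, PTPRC and CD3E, were above background on no array and 3, CD14, CD68 and LYZ, on all 8. Of 6 cholangiocyte markers 1, KRT7, was above background on no array and 4, SPP1 among them, on all 8. Summed leukocyte markers were 776 to 1285 units after COP1 siRNA and 774 to 941 units after control siRNA, and summed endothelial markers were 21.7 to 95.7 units and 6.66 to 49.6 units in the same order of groups. Summed cholangiocyte markers were 6474 to 7231 units after COP1 siRNA and 9073 to 10505 units after control siRNA, without overlap. Most of that difference was SPP1, with means of 564 and 2813 units in that order. KRT19 had means of 5013 and 5442 units, SOX9 1135 and 1361, EPCAM 85.4 and 87.3 and the dim CFTR 33.3 and 1.98. Summed fibroblast markers were 6934 to 7516 units and 6969 to 7976 units in the same order, mostly ACTA2, with means of 7059 and 7138 units. The part of these differences in the results was not tested. In bulk RNA, fewer cells of a kind and less RNA per cell cannot be told apart.

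COP1 RNA (chr1:175944831-176207286 in GRCh38.p14) was reduced on every COP1 siRNA array. Its brightest probe read 365, 387, 416 and 471 units after COP1 siRNA and 1451, 1764, 1456 and 1674 units after control siRNA. The groups did not overlap, and the COP1 siRNA mean was 25.8% of the control mean. The log2 fold change was -1.78 ± 0.11 (adjusted p = 2.5e-10). A second probe read 340.3, 322, 291 and 349 units against 1362, 1343, 1322 and 1632 units, and the remaining probe was at background on all 8 arrays. An exact permutation test of the brightest probe, two-sided over the 70 arrangements of 8 arrays, gave p = 0.029, the smallest that 4 against 4 allows. Where in the transcript each probe lies is not given in the sources used here.

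Partners of COP1 moved in both directions. A list of 23 held genes coding for the ligase, its adaptors, related ligases and the COP9 signalosome (which regulates cullin ligases). Of 20 tested, 6 were higher (30%) and 6 lower (30%), COP1 included, against 17.2% and 16.8% of all genes. COPS5, the catalytic signalosome subunit, read 1496, 1437, 1515 and 1507 units after COP1 siRNA and 2886, 2847, 2621 and 2752 units after control siRNA, a fall of 0.87 ± 0.10 (adjusted p = 1.3e-06). The signalosome subunit COPS7A fell by 0.69 ± 0.10 (adjusted p = 3.9e-05) and the cullin CUL4B by 0.67 ± 0.11 (adjusted p = 1.4e-04), the last from a dim probe that was above background on 2 of 4 COP1 siRNA and 4 of 4 control arrays. DET1, the partner that links COP1 to DDB1, rose by 0.38 ± 0.11 (adjusted p = 0.011). The adaptor TRIB1 (-0.08 ± 0.11), the linker DDB1 (0.11 ± 0.11) and the cullin CUL4A (-0.08 ± 0.13) did not pass, with adjusted p of 0.61, 0.47 and 0.70. MDM2, another E3 ligase, fell by 0.39 ± 0.13 (adjusted p = 0.024), and that call was lost without COP1 siRNA replicate 2 (-0.26), without control replicate 2 (-0.32) and with 1 spread shared by all 22 arrays. Leaving out control replicate 4 lowered the number of rises in the list to 2.

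RNAs of described substrates did not move as a block. Of 9 tested, 2 rose (22.2%, against 17.2% of all genes), 4 fell (44.4%, against 16.8%) and 3 did not pass. JUN, a subunit of AP-1, read 1307, 1497, 1369 and 1256 units after COP1 siRNA and 1116, 979, 984 and 971 units after control siRNA. All COP1 siRNA arrays were above all control arrays, and the rise was 0.40 ± 0.10 (adjusted p = 0.0056), which did not pass with 1 spread shared by all 22 arrays (adjusted p = 0.066). PNPLA2, the triglyceride lipase ATGL, read 347, 446, 261 and 267 units against 180.3, 212, 245 and 199 units and rose by 0.49 ± 0.13 (adjusted p = 0.0067), with replicates 1 and 2 highest. The ETS factor gene ETV4 fell, with 268, 237, 186 and 186 units after COP1 siRNA and 566, 449.9, 500.3 and 412 units after control siRNA (-0.92 ± 0.12; adjusted p = 7.6e-06). Its relative ETV5 fell as well, again with no overlap of the groups, at 656, 648, 652 and 618 units against 880.3, 1073, 1048 and 955 units (-0.56 ± 0.10; adjusted p = 2.7e-04). A dimmer ETV5 probe gave -0.16 and did not pass. FOXO1, a forkhead factor that insulin signalling restrains, fell by 0.65 ± 0.13 (adjusted p = 4.9e-04). ETS2 fell by 0.28 ± 0.10, close to the threshold (adjusted p = 0.042), and its call was lost in 6 of the 8 fits that left out 1 array, where the changes ran between -0.30 and -0.22, and also with 1 spread shared by all 22 arrays (adjusted p = 0.064). CEBPA (-0.17 ± 0.10), the lipogenic enzyme gene ACACA (-0.24 ± 0.10) and the chromatin factor gene MTA1 (0.22 ± 0.12) did not pass, with adjusted p of 0.22, 0.072 and 0.18. The other substrates on the list are not analysed here. Genes of MAPK feedback, to which ETV4 and ETV5 belong, showed 7 falls (46.7%) and 2 rises (13.3%) among 15 tested. SPRY4, an inhibitor of receptor tyrosine kinase signalling, fell by 0.70 ± 0.11 (adjusted p = 5.3e-05).

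**Figure D1:**
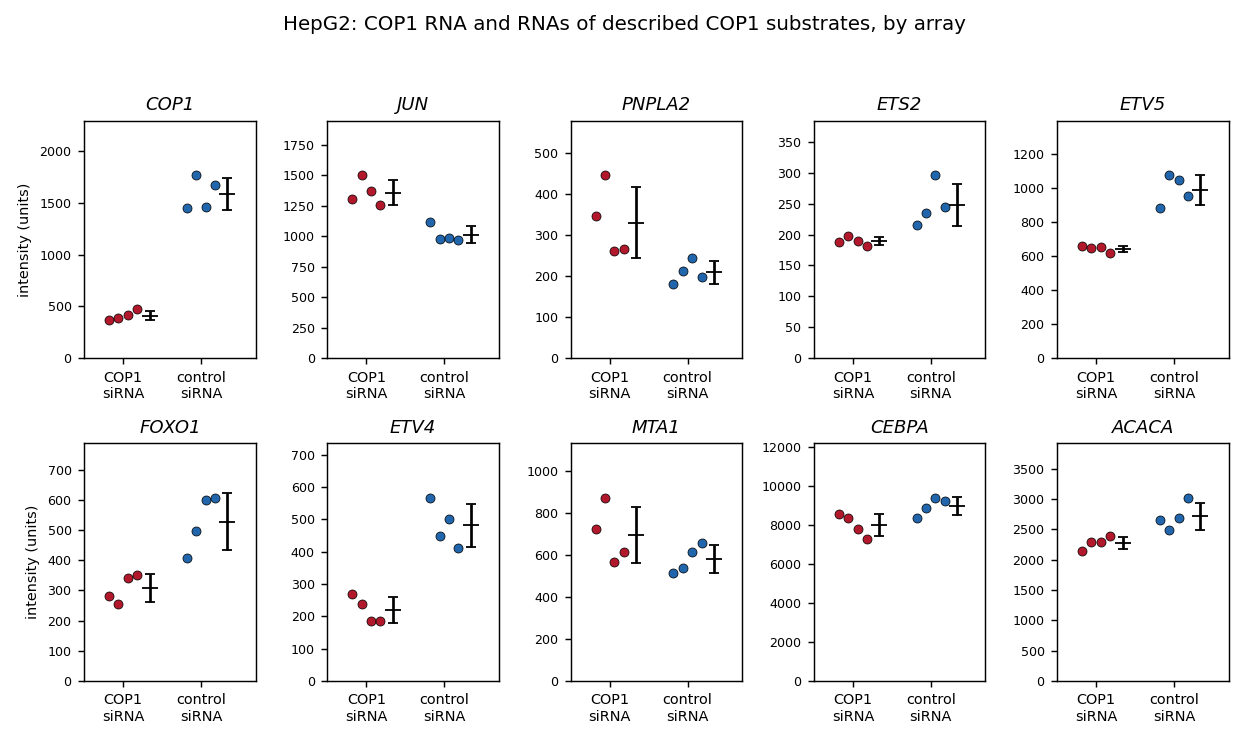
Intensity in arbitrary units on each HepG2 array for COP1 and 9 described substrates, with COP1 siRNA in red at the left and control siRNA in blue at the right of each panel. Points are the 4 replicates in order and the bars beside them the mean ± SD. COP1 fell on all 4 arrays to 25.8% of the control mean, JUN and PNPLA2 lay above their controls, and ETV4, ETV5, FOXO1 and ETS2 below.

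The 20 largest rises joined genes of very different roles. UBD (chr6:29555515-29559732), a ubiquitin-like modifier that interferon gamma and TNF induce, read 1464, 2008, 1662 and 1372 units after COP1 siRNA and 268, 362, 256 and 177 units after control siRNA, a rise of 2.33 ± 0.15 (adjusted p = 3.2e-10). The glutathione transferase genes GSTA2 (chr6:52750087-52763475) and GSTA1 (chr6:52791371-52803816) lie close together and are near-identical copies, so their probes may share RNA. GSTA2 read 987, 1019, 1082 and 1169 units against 139, 169, 174 and 145 units, and GSTA1 1504, 1973, 1917 and 1784 units against 364, 314, 359.7 and 303 units, rises of 2.30 ± 0.10 and 2.18 ± 0.11. SLC51A, a subunit of the bile acid and steroid exporter OST, read 1306, 989, 1207 and 1234 units after COP1 siRNA and 245, 196, 205 and 253 units after control siRNA (2.07 ± 0.11; adjusted p = 5.3e-11). For each of these genes the lowest COP1 siRNA array was well above the highest control array. The 20 rises were chosen among genes whose groups did not overlap, so this separation is a description.

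The other large rises are given with their known roles, with no theme tested. CIDEC, which fuses lipid droplets, read 2660.1, 2628, 2681 and 2759 units after COP1 siRNA and 779.9, 679, 673 and 645 units after control siRNA (1.84 ± 0.10). Its relative CIDEB, a lipid droplet and lipoprotein protein, rose by 1.35 ± 0.11. ELOVL3, a fatty acid elongase, read 179, 321, 326 and 242 units after COP1 siRNA and 37.8, 47.0, 34.8 and 30.3 units after control siRNA (1.58 ± 0.13). The phospholipase genes PLA2G1B (1.56 ± 0.12) and PAFAH2 (1.39 ± 0.11) rose too, PLA2G1B from a control level at the edge of background, which 2 of 4 control arrays exceeded. The adjusted p from limma for these 5 genes lay between 5.3e-11 and 2.3e-08. The acetyltransferase genes NAT8B (1.81 ± 0.11) and NAT8 (1.44 ± 0.13), which are close paralogs, rose together. MYO1A, a myosin of the intestinal brush border, rose by 1.39 ± 0.12, the galectin gene LGALS2 by 1.49 ± 0.14, the bZIP factor gene NFE2L3 by 1.39 ± 0.11, the haem transporter gene SLC48A1 by 1.26 ± 0.13, UNC93A by 2.03 ± 0.12 and ISM2 by 1.25 ± 0.11. SLC48A1 and LGALS2 were highest on COP1 siRNA replicate 2, at 811, 1398, 955 and 894 units and 313, 567, 318 and 430.4 units over replicates 1 to 4.

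The 20 largest falls are given the same way. CANX (chr5:179678656-179731641), the endoplasmic reticulum lectin chaperone calnexin, had the largest fall, to 59.7, 74.6, 70.0 and 71.8 units after COP1 siRNA against 821, 729, 710.4 and 819 units after control siRNA (-2.55 ± 0.10; adjusted p = 9.1e-13). CLINT1, which acts in clathrin-dependent trafficking, read 221, 149, 244 and 251 units against 1388, 1597, 1202 and 1609 units (-2.39 ± 0.13). SURF4, a receptor for cargo leaving the endoplasmic reticulum, read 769, 857, 901 and 777 units against 2919.8, 3078, 3127 and 3127 units (-1.80 ± 0.10). MMGT1, a subunit of the complex that inserts membrane proteins into the endoplasmic reticulum, fell by 2.25 ± 0.12. In every case the groups were separated by more than the whole range within either group, which is a description, since the falls were chosen among genes without overlap.

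Among the other large falls, COX7A2, a cytochrome c oxidase subunit, read 1643, 2677, 2380.1 and 1862 units after COP1 siRNA and 12071, 9480.5, 9358 and 8415 units after control siRNA (-2.17 ± 0.14), and the mitochondrial ribosome gene MRPL18 fell by 2.00 ± 0.11. MCM10, needed to start DNA replication, read 123, 133, 133 and 128 units against 764, 672, 590.3 and 828 units (-1.94 ± 0.11). RCC2, which acts in mitosis, fell by 1.98 ± 0.10 and the DNA polymerase subunit gene POLE3 by 1.87 ± 0.13. SEPTIN2, a cytoskeletal GTP-binding protein, fell by 2.29 ± 0.11 on its brightest probe while a second probe fell by 2.26 and 2 dim probes gave -0.12 and -0.06 and did not pass. FXR1, an RNA-binding protein, fell by 2.04 ± 0.12, and by 0.83 on a second probe. SPP1, the secreted phosphoprotein osteopontin, read 559, 506, 628 and 562 units after COP1 siRNA and 2778, 3407, 2473 and 2594 units after control siRNA (-2.17 ± 0.11). TFPI, an inhibitor of blood coagulation, fell by 1.77 ± 0.12, and PLA2G12B, a phospholipase-like protein, fell by 1.86 ± 0.11. NETO2, a receptor accessory protein, fell by 1.92 ± 0.11, the small GTPase gene RAP2A by 1.89 ± 0.13, the coiled-coil protein gene TACC1 by 1.88 ± 0.11 and LBHD1 by 1.88 ± 0.14. These were chosen as the largest falls whose groups did not overlap, so their separation is a description.

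**Figure D2:**
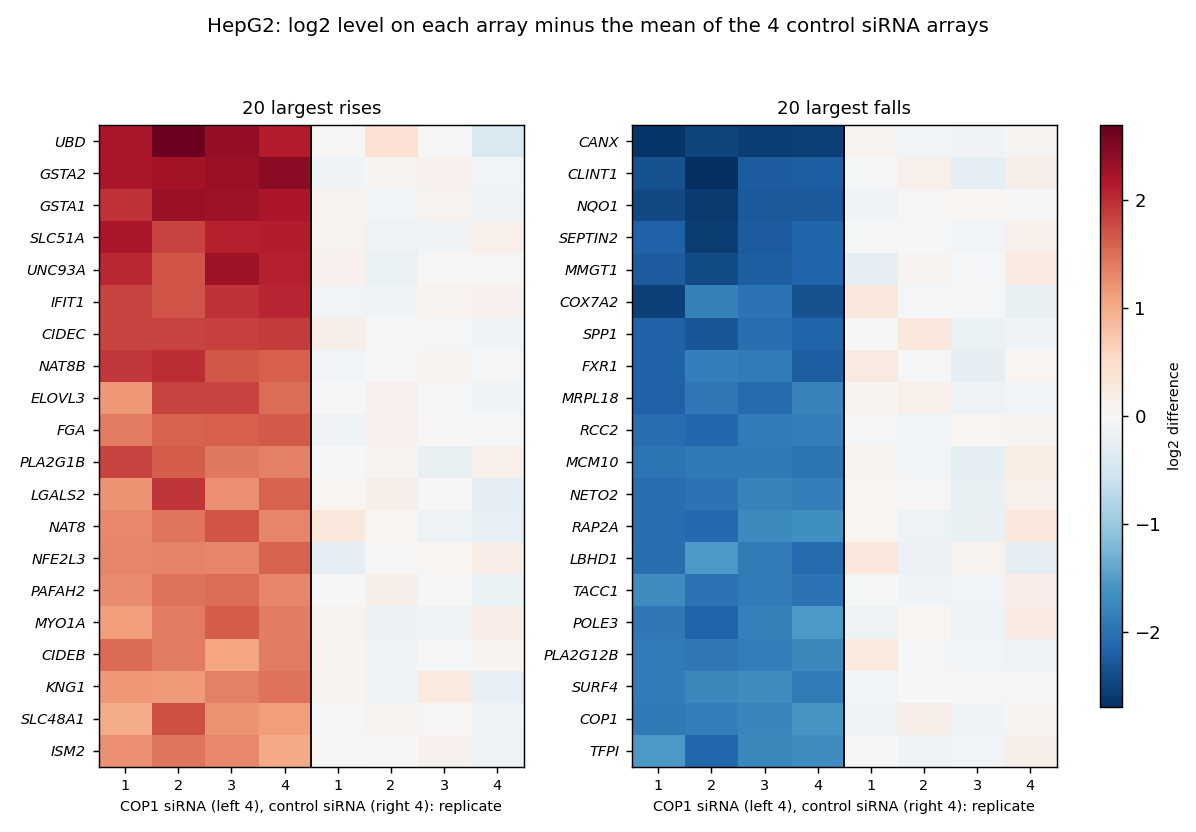
Level of the 20 largest rises (left) and 20 largest falls (right) on each HepG2 array, as the log2 value minus the mean of the 4 control siRNA arrays, with COP1 siRNA arrays to the left of the line in each panel. Red is higher and blue lower. UBD had the largest rise (2.33) and CANX the largest fall (-2.55), and the control columns stay near 0.

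Interferon response genes held more rises than falls. This response is set off when interferons activate STAT and IRF factors, which bind interferon-stimulated response elements and raise antiviral and antigen presentation genes. Of 30 genes tested from a list of 49, 14 rose (46.7%, against 17.2% of all genes), 1 fell (3.33%, against 16.8% of all genes) and 15 did not pass, with a median of 0.29 against 0.03 over all genes. In the antigen presentation list, 11 of 17 tested rose (64.7%) and 1, CANX, fell (5.88%), with a median of 0.40. The 2 lists were chosen with earlier results of these data known, and so were all lists below. With any 1 array left out, the number of rises was 13 to 17 in the interferon list and 9 to 12 in the antigen presentation list.

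IFIT1, an antiviral protein that binds foreign RNA ends, read 308, 280.4, 348 and 375 units after COP1 siRNA and 27.6, 24.7, 41.3 and 42.1 units after control siRNA. Its rise was 1.88 ± 0.11 (adjusted p = 1.2e-10), and all control arrays were close to background. IRF9, the DNA-binding partner of the STATs in this response, read 1457, 1498, 1434 and 1375 units against 704, 654, 823 and 638 units and rose by 0.96 ± 0.11 (adjusted p = 8.3e-07). The exonuclease gene ISG20 rose by 0.99 ± 0.10, with 615, 599, 556 and 629 units after COP1 siRNA and 246, 242, 315 and 259.6 units after control siRNA. UBE2L6, the conjugating enzyme for the ISG15 modifier, rose by 0.92 ± 0.12, though a second, dimmer probe gave 0.47. IRF1, a factor induced by interferon, rose by 0.78 ± 0.18 (adjusted p = 0.0026), with 523, 277, 625 and 729.9 units against 228, 223, 328 and 298 units. COP1 siRNA replicate 2 lay within the IRF1 control range, and the other 3 replicates lay above it. The peptide transporter gene TAP1 read 2314, 2308, 2231 and 2635 units after COP1 siRNA and 1209, 1102, 1238 and 1058 units after control siRNA (1.00 ± 0.10; adjusted p = 4.5e-07). TAPBP, which loads peptide onto class I molecules, rose by 0.83 ± 0.12 on its brightest probe, while 2 dim probes gave 0.16 and 0.22 and did not pass. B2M, the class I light chain, did not pass (0.16 ± 0.11; adjusted p = 0.27). Of 11 genes tested from a list of markers of other cell types, 1 rose (9.09%) and 2 fell (18.2%). Over all genes 17.2% rose and 16.8% fell, so the rises were below that share and the falls near it. The rise was that of CD14, a monocyte and liver protein, by 0.51 ± 0.11. A second, dimmer CD14 probe gave 0.09 and did not pass. The falls were those of the leukocyte marker LYZ (-0.47 ± 0.11) and the fibroblast and stellate marker PDGFRB (-0.47 ± 0.14).

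The promoters of these genes were read to show whether the response element's letters occur in them. The search used GAAANNGAA on both strands in 300 bases, from 250 before to 50 after each gene's annotated start in RefSeq (GRCh38.p14). Of the 30 interferon genes tested, 25 had a promoter in the table and 15 of these (60%) held a match, and of the antigen presentation genes 8 of 16 (50%) did. Among all 35116 promoters the share was 8.11%, and among 7958 genes tested in HepG2 it was 6.17%. Among all genes higher after COP1 siRNA it was 6.57% and among all lower genes 6.14%. Shown are 4 genes that rose, then B2M, whose promoter holds 2 matches and whose RNA did not pass. Capitals mark the matches, which overlap in TAP1, TAPBP and B2M, and positions are chr10:89392373-89392672, plus strand for IFIT1, chr15:88638766-88639065, plus strand for ISG20, chr6:32853655-32853954, minus strand for TAP1, chr6:33314029-33314328, minus strand for TAPBP and chr15:44711267-44711566, plus strand for B2M.
IFIT1: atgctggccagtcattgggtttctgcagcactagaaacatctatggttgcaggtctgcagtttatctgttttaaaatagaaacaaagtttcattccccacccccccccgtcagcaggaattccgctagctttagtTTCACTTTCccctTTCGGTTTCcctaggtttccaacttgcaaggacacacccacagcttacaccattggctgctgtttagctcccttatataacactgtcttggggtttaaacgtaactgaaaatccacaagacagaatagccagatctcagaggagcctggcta
ISG20: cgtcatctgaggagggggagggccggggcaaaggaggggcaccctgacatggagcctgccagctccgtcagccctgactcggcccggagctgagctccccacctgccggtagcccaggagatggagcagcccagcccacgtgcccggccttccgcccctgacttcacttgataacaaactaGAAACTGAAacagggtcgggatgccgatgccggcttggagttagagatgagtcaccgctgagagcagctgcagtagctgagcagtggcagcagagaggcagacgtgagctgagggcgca
TAP1: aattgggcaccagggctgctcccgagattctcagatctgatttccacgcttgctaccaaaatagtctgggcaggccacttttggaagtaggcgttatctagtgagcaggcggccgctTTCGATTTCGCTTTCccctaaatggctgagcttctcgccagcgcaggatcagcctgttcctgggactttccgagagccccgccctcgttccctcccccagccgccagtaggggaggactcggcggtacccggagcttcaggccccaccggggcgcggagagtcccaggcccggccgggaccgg
TAPBP: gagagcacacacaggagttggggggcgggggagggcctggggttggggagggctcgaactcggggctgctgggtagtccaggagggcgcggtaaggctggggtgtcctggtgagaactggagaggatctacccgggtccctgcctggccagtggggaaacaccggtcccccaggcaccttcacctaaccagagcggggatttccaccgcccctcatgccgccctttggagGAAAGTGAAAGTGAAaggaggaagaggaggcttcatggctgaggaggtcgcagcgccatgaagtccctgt
B2M: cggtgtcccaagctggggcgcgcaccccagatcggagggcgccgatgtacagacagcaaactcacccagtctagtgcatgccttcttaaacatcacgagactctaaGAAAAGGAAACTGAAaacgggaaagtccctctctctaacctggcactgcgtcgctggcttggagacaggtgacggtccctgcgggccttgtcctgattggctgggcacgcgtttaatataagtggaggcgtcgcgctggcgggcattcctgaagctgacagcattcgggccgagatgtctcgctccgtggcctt
Relative to the annotated start, the matches begin at -115 and -102 in IFIT1, at -69 in ISG20, at -133 and -127 in TAP1, at -20 and -14 in TAPBP, and at -144 and -138 in B2M. A match is a string of letters and not a measured binding site.

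Chemokine and NF-kB genes gave 7 rises (46.7%, against 17.2% of all genes) and 2 falls (13.3%, against 16.8%) among 15 tested (median 0.24). CX3CL1, a membrane-bound chemokine, rose by 0.66 ± 0.11 (adjusted p = 1.5e-04) and the cytokine gene IL32 by 0.56 ± 0.11, with 0.57 on a second probe. NFKB2, a subunit of NF-kB, rose by 0.56 ± 0.13 on a dim probe above background on 4 of 4 COP1 siRNA and 2 of 4 control arrays, while a second dim probe gave 0.22 and did not pass. CXCL8, the neutrophil chemokine interleukin 8, fell to 125, 117, 98.4 and 141 units after COP1 siRNA against 236, 253, 215 and 203 units after control siRNA (-0.63 ± 0.11; adjusted p = 1.4e-04). The letters GGGANNTTC occurred in 4 of 11 promoters of this list (36.4%) and in 4.18% of all promoters. Without COP1 siRNA replicate 3 the list had 4 rises and 1 fall, and without control replicate 1 it had 1 fall.

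Targets of NRF2 held more falls than rises. NRF2, encoded by NFE2L2, is the factor that raises detoxifying and NADPH-producing enzymes under oxidative stress, and KEAP1 holds it in check. Of 24 genes tested from a list of 31, 8 fell (33.3%, against 16.8% of all genes), 1 rose (4.17%, against 17.2%) and 15 did not pass. The number of falls was 8 in each fit with 1 array left out. NQO1 (chr16:69709401-69726560), a quinone reductase, read 2535, 2278, 2839.6 and 2861 units after COP1 siRNA and 13064, 14323, 14588 and 14229 units after control siRNA. It fell by 2.39 ± 0.11 (adjusted p = 3.9e-12), and a second probe fell by 1.79. The pentose phosphate enzyme gene TALDO1 read 3940.4, 3417, 3572 and 3815 units against 10336, 11256, 13202 and 10482 units (-1.59 ± 0.11), and TXNRD1, a thioredoxin reductase, 1035, 1057, 959 and 867 units against 2033, 2589, 2459.8 and 2380.1 units (-1.21 ± 0.11). NFE2L2 itself read 1094, 723, 1092 and 915 units after COP1 siRNA and 1753, 1868, 1269 and 1953 units after control siRNA, a fall of 0.79 ± 0.14 (adjusted p = 2.2e-04). KEAP1 did not pass (-0.14 ± 0.10; adjusted p = 0.33). AKR1B10, an aldo-keto reductase, fell by 0.57 ± 0.11, and ABCC2, a canalicular exporter of conjugates, by 0.50 ± 0.11. The antioxidant-response letters TGACNNNGC occurred in 6 of 19 promoters of the list (31.6%), in 13.3% of all promoters and in 15.6% of those of genes tested in HepG2. Among the list's lower genes 1 of 7 promoters (14.3%) held them, that of TXNRD1. It lies at chr12:104215529-104215828, plus strand and is shown with its 2 matches in capitals as the only such promoter.
TXNRD1: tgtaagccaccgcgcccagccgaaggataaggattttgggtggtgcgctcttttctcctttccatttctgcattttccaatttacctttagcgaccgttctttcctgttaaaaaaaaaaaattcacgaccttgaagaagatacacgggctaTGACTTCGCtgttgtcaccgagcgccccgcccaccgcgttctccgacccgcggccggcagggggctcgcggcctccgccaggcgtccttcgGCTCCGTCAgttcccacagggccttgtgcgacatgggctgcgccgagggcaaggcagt

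**Figure D3:**
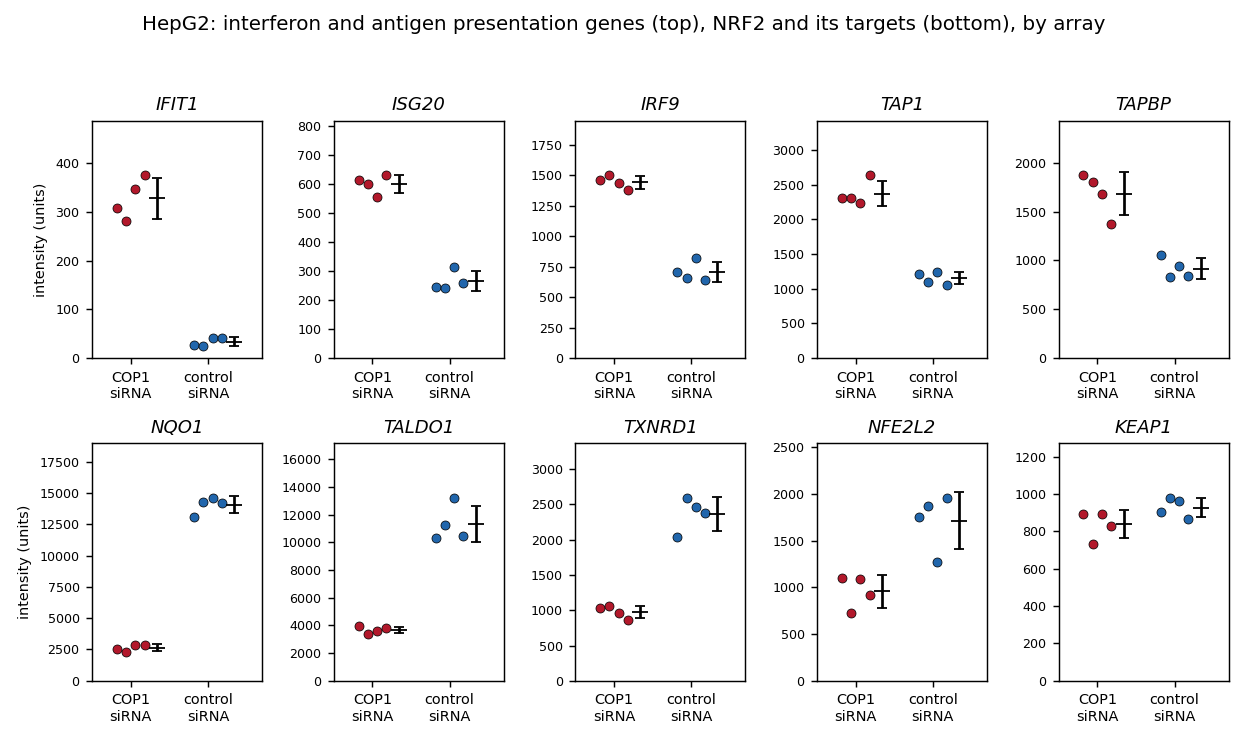
Intensity in arbitrary units on each HepG2 array for 5 interferon and antigen presentation genes (top row) and for NFE2L2, KEAP1 and 3 NRF2 targets (bottom row), with COP1 siRNA in red at the left of its control siRNA in blue. Points are replicates and bars the mean ± SD. The top row lies above its controls, NQO1, TALDO1, TXNRD1 and NFE2L2 lie below theirs, and KEAP1 overlaps.

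Glutathione transferases, many of which NRF2 is also known to raise, held more rises than falls. Of 15 tested, 8 rose (53.3%, against 17.2% of all genes) and 1 fell (6.67%, against 16.8%). The median was 0.45, and it was 0.23 without COP1 siRNA replicate 2 or control replicate 2, 0.24 without COP1 siRNA replicate 4 and 0.26 without COP1 siRNA replicate 3. The fall was that of GSTT1, by 1.05 ± 0.12 (adjusted p = 8.3e-07), with 977, 1209, 860.4 and 896 units after COP1 siRNA and 2229, 1898, 2250.0 and 2082 units after control siRNA. Beyond the alpha-class genes given above, GSTM4 rose by 0.64 ± 0.12 on its brightest probe, but a second probe gave 0.10 and did not pass. The 2 probes were close in mean level, and which was brightest depended on the run. The second probe was taken without COP1 siRNA replicate 2 (0.14), 3 (0.05) or 4 (0.14) and without control replicate 2 (0.06). It was also taken without normexp (0.17) and with an offset of 16 (0.12). The call was lost in these runs through the change of probe, so they do not show how the first probe depends on an array. The lower medians above came from the same fits with an array left out, and the part of the probe change in them was not tested. The mu-class genes are near-identical copies. The annotated promoters of GSTA2 (chr6:52763426-52763725, minus strand) and GSTA1 (chr6:52803767-52804066, minus strand) are shown for how alike the 2 genes are. They matched at 288 of 300 positions (96%), and each holds 1 match to the GAAANNGAA letters, in capitals.
GSTA2: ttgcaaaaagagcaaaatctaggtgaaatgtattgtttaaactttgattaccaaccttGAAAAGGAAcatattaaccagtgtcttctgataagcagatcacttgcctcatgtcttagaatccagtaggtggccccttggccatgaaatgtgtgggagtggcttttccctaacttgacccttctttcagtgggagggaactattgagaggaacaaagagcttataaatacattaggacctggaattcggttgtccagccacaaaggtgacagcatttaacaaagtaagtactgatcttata
GSTA1: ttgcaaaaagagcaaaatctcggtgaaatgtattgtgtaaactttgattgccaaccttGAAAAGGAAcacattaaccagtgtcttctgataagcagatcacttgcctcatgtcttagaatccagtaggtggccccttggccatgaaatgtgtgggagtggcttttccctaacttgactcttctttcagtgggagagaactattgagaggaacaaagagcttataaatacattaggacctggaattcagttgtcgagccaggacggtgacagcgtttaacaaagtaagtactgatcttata
Among drug- and steroid-metabolizing P450, UGT and SULT genes, 7 of 19 tested rose (36.8%) and 4 fell (21.1%), against 17.2% and 16.8% of all genes. CYP26A1, which degrades retinoic acid, rose by 0.94 ± 0.13, and the sulfotransferase gene SULT2A1 read 3378, 3219.6, 3167 and 3538 units after COP1 siRNA and 1979, 1766, 1988 and 1933 units after control siRNA (0.77 ± 0.10). The glucuronosyltransferase genes UGT2B10 and UGT2B7 fell by 1.12 ± 0.11 and 0.96 ± 0.10. They belong to a family of close copies. Of 13 bile acid genes tested, 5 rose (38.5%) and 1 fell (7.69%). The rises numbered 3 without any 1 of COP1 siRNA replicates 2 and 3 and control replicates 2, 3 and 4. CYP8B1, which sets the ratio of bile acid types, rose by 0.55 ± 0.13 (adjusted p = 0.0024).

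Genes of secreted plasma proteins were more often higher than lower. Of 24 coagulation and complement genes tested, 12 rose (50%) and 3 fell (12.5%), against 17.2% and 16.8% of all genes. Of 19 fibrinogen and acute phase genes, 9 rose (47.4%) and 3 fell (15.8%), and of 20 other hepatocyte genes, 7 rose (35%) and 1 fell (5%). Without COP1 siRNA replicate 3 the falls of the acute phase list numbered 1, and without control replicate 4 the rises of the last list numbered 4. FGA (chr4:154583126-154590742), the fibrinogen alpha chain, read 5309, 6031, 6126 and 6303 units after COP1 siRNA and 1792, 2124, 1998 and 1888 units after control siRNA (1.57 ± 0.10; adjusted p = 7.1e-10), and a second probe rose by 1.60. The gamma chain gene FGG rose by 1.09 ± 0.12, the haem-binding protein gene HPX by 0.83 ± 0.11 and haptoglobin, HP, by 0.62 ± 0.11. KNG1, the kinin precursor, read 765, 754, 875 and 944 units against 315, 267, 371 and 245 units (1.29 ± 0.12). The complement protease gene C1S rose by 0.73 ± 0.12 (adjusted p = 1.5e-04). The anticoagulant protein S gene, PROS1, fell by 0.75 ± 0.10 (adjusted p = 1.7e-05), and TFPI fell as given above. VTN, vitronectin, rose by 0.98 ± 0.12, the cortisol-binding globulin gene SERPINA6 by 0.72 ± 0.13 and transthyretin, TTR, by 0.58 ± 0.13, while the urea cycle gene CPS1 fell by 0.40 ± 0.10. TTR's call was lost with 1 spread shared by all 22 arrays. In that shared fit the fibrinogen and acute phase list had 5 rises.

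Fetal and tumour-associated liver markers showed no rise, against 17.2% of all genes. Of 19 tested, 7 fell (36.8%, against 16.8% of all genes, median -0.26), and 5 to 8 fell with any 1 array left out. SPP1 is among them. LIN28B, an RNA-binding protein that blocks let-7 maturation, read 109, 97.3, 133 and 142 units after COP1 siRNA and 628, 411, 479 and 682 units after control siRNA (-1.66 ± 0.13; adjusted p = 1.2e-08). CD24, a surface glycoprotein, fell by 0.55 ± 0.10. AFP, the fetal serum protein alpha-fetoprotein, read 18704, 14622, 15524 and 15454 units against 20918, 20774, 20105 and 19972 units, a fall of 0.35 ± 0.11 (adjusted p = 0.014) that did not pass with the shared spread. Hepatocyte transcription factors gave 3 rises (13%) and 5 falls (21.7%) among 23 tested, near the 17.2% and 16.8% of all genes. Of these, PROX1, a homeobox factor of liver development, fell by 1.13 ± 0.13, CEBPG by 0.92 ± 0.11, PPARGC1A by 0.59 ± 0.13 and TBX3 by 0.57 ± 0.11. FOXA2 (-0.24 ± 0.10) did not pass. The factor list had 1 rise without COP1 siRNA replicate 2 or 3 or control replicate 2.

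Lipid and sterol genes were counted by pathway, against 17.2% of all genes higher and 16.8% lower. Of 18 cholesterol synthesis and uptake genes tested, 6 fell and none rose, with 1 rise without COP1 siRNA replicate 1 or control replicate 4. HMGCS1, an early enzyme of the pathway, read 3142, 3850.3, 2731 and 3282 units after COP1 siRNA and 5699.8, 4544, 4592 and 5755 units after control siRNA (-0.65 ± 0.12; adjusted p = 3.6e-04). LBR, a sterol reductase of the nuclear envelope, fell by 1.12 ± 0.10, MVD by 0.57 ± 0.11 and LSS by 0.56 ± 0.12, with 2 dimmer LSS probes not passing. SREBF2, the factor that drives these genes, did not pass (0.14 ± 0.14). Among 23 fatty acid synthesis genes 4 rose (17.4%) and 5 fell (21.7%), shares near those of all genes. ELOVL6, the elongase of long saturated chains, read 116, 124, 83.2 and 130.1 units against 556, 419, 431 and 626 units (-1.62 ± 0.13; adjusted p = 7.6e-09), and ELOVL5, ACSL4 and the acyltransferase gene GPAM fell by 0.83 ± 0.13, 0.77 ± 0.14 and 0.72 ± 0.11. Of the dimmer ACSL4 probes, 1 gave -0.09 and did not pass and 1 fell by 0.67. In fatty acid oxidation 8 of 23 tested rose and 3 fell (no falls without COP1 siRNA replicate 2 or control replicate 2 or 4). CPT1A, the gate of mitochondrial import, was up by 0.54 ± 0.11 and the thiolase gene ACAA1 by 0.50 ± 0.11. A dim CPT1A probe gave -0.003 and did not pass. Of 24 apolipoprotein and lipoprotein genes, 3 rose and 3 fell (12.5% each), again near the shares of all genes. APOB, the scaffold of very low density lipoprotein, fell by 0.64 ± 0.11, and APOA5 and ANGPTL8, which regulate plasma triglyceride, fell by 0.82 ± 0.12 and 0.83 ± 0.12, while APOA4 rose by 0.79 ± 0.10.

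Genes of DNA replication and mitosis were more often lower. Of 60 G1/S and replication genes tested, 21 fell (35%) and 3 rose (5%), with a median of -0.23. Of 56 G2/M and mitosis genes 23 fell (41.1%) and 4 rose (7.14%), with a median of -0.23. Over all genes 16.8% fell and 17.2% rose. With any 1 array left out the falls numbered 21 to 23 and 18 to 24, and the few rises 0 to 3 (lowest without control replicate 2) and 1 to 5 (lowest without control replicate 4). RRM2, a subunit of ribonucleotide reductase, read 274, 158, 300.3 and 276 units after COP1 siRNA and 571, 774, 724 and 732 units after control siRNA (-1.26 ± 0.14). The repressor gene E2F7 fell by 1.13 ± 0.12 and SLBP, which binds histone mRNA, by 1.12 ± 0.16. COP1 siRNA replicate 2 had the lowest RRM2, E2F7 and SLBP values of its group. TOP2A, a topoisomerase of dividing cells, read 1589.5, 1366, 1425 and 1337 units against 3101, 2513, 2260.3 and 3553 units (-0.94 ± 0.13), and the mitotic genes CENPF, HMMR and ASPM fell by 0.89 ± 0.12, 0.87 ± 0.13 and 0.84 ± 0.14. CDK1, the mitotic kinase, fell by 0.64 ± 0.15, with replicates of the groups overlapping. Common proliferation markers did not pass, with log2 fold changes of 0.14 ± 0.11 for PCNA and -0.09 ± 0.10 for the dim MKI67 probe. The G1 cyclin genes CCND1 (0.16 ± 0.11) and CCNE1 (-0.24 ± 0.10) did not pass. The E2F-type letters TTTGGCGC or TTTCCCGC occurred in 22 of 52 promoters of the G1/S list (42.3%) and in 2.27% of all promoters. Among promoters of the list's lower genes 8 of 20 (40%) held them.

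Replication-cluster histones held rises and no fall. Of 60 on the list, 22 passed the filter on dim probes, 10 of these rose (45.5%) and 12 did not pass. Over all genes 17.2% rose and 16.8% fell. H3C10 read 235, 140.1, 198 and 193 units after COP1 siRNA and 61.0, 63.3, 61.9 and 82.5 units after control siRNA (0.90 ± 0.12; adjusted p = 7.8e-06), and the linker histone gene H1-2 rose by 0.77 ± 0.11. H4C11 was above background on 4 COP1 siRNA and 1 control array, so it passed the filter through the higher group. Histone genes are near-identical within a class, and their probes may share RNA.

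Genes that p53 is known to raise gave 8 rises (32%, against 17.2% of all genes) among 25 tested. Their 4 falls (16%) were near the 16.8% of all genes. TP53I3, an oxidoreductase, read 2213, 2646, 2247 and 2112 units after COP1 siRNA and 1194, 1244, 1313 and 1228 units after control siRNA (0.85 ± 0.10; adjusted p = 3.8e-06), with 0.07 on a dim second probe that did not pass, and the survival factor gene TRIAP1 rose by 0.64 ± 0.12. GDF15, whose call was lost with the shared spread, fell by 0.47 ± 0.13 and APAF1, the apoptosome scaffold, by 0.48 ± 0.12. CDKN1A, the CDK inhibitor p21, did not pass (0.26 ± 0.11; adjusted p = 0.079), reading 5571, 6555, 5699.8 and 4998 units against 4522, 4685, 5406 and 4382 units. The rises numbered 3 without control replicate 1 or 4, 4 without COP1 siRNA replicate 1 and 5 without COP1 siRNA replicate 2 or 3. Of 10 CDK inhibitor genes tested, 1 rose and 1 fell (10% each, below the shares of all genes). BTG3 rose by 0.33 ± 0.11 and CDKN1B, p27, fell by 0.40 ± 0.12 (adjusted p = 0.013). BTG3 lost its call without COP1 siRNA replicate 4 (0.29) or control replicate 2 (0.30).

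Among 29 apoptosis genes 6 rose (20.7%, near the 17.2% of all genes) and 2 fell (6.90%, against 16.8%). FADD, the adaptor of death receptors, fell on all 4 arrays, to 258, 352, 268 and 281 units after COP1 siRNA against 1169, 1039, 1004 and 953 units after control siRNA (-1.62 ± 0.11; adjusted p = 1.1e-09). BIK, a BH3-only activator of cell death, rose by 1.06 ± 0.15 and its effector relative BAK1 by 0.61 ± 0.13, and CASP9 rose by 0.55 ± 0.13. A dimmer CASP9 probe gave 0.34 and did not pass. Without COP1 siRNA replicate 2 the list had 10 rises. Early response genes gave 6 rises (31.6%) and 1 fall (5.26%) among 19 tested, with KLF2 at 0.97 ± 0.12, DUSP1 at 0.60 ± 0.13, IER5 at 0.60 ± 0.11 and EGR1 at -0.73 ± 0.13.

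Chaperones of the endoplasmic reticulum were more often lower, with 8 falls (36.4%) and 1 rise (4.55%) among 22 tested (median -0.23). Over all genes 16.8% fell and 17.2% rose. HSP90B1, the chaperone GRP94, read 4685, 3326, 3595 and 4089 units after COP1 siRNA and 7853, 6782, 7279 and 8593 units after control siRNA (-0.95 ± 0.12; adjusted p = 4.8e-06). UGGT1, which marks misfolded glycoproteins for another round with calnexin, fell by 0.68 ± 0.12 and the co-chaperone gene DNAJB9 by 0.63 ± 0.10. HSPA5 (-0.17 ± 0.12), XBP1 (-0.30 ± 0.12), ATF6 (0.10 ± 0.12) and DDIT3 (-0.15 ± 0.12), regulators and markers of the unfolded protein response, did not pass. Vesicle export from the endoplasmic reticulum showed 6 falls (25%) and 2 rises (8.33%) among 24 tested. SEC16A, which marks export sites, read 366, 399, 411 and 383 units against 1076, 1089.6, 1243 and 1171 units (-1.39 ± 0.10), the coat gene SEC23B fell by 0.90 ± 0.13 and the cargo adaptor gene MCFD2 by 0.69 ± 0.12. The rises there numbered 0 without COP1 siRNA replicate 1 or control replicate 1 or 4. ATF4 targets gave 7 rises (22.6%) and 8 falls (25.8%) among 31 tested, not far from the 17.2% and 16.8% of all genes. They had 4 rises without COP1 siRNA replicate 3. The alanyl-tRNA synthetase gene AARS1 fell by 1.01 ± 0.10 and the amino acid transporter gene SLC38A2 by 0.97 ± 0.12, while DDIT4, an inhibitor of mTORC1, rose to 3512, 3923, 3407 and 2969 units after COP1 siRNA against 1824, 2013, 1884 and 1792 units after control siRNA (0.85 ± 0.11). ATF4 itself did not pass on its brightest probe (-0.26 ± 0.10; adjusted p = 0.051), though that probe passed with 1 spread shared by all 22 arrays (adjusted p = 0.042). The 2 dimmer ATF4 probes each gave 0.06, opposite in sign, and did not pass.

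Mitochondrial genes were counted against 17.2% of all genes higher and 16.8% lower. In the mitochondrial ribosome 22 of 74 tested rose (29.7%), 7 fell (9.46%) and 45 did not pass. In the respiratory chain 16 of 63 rose (25.4%), 1, COX7A2, fell (1.59%) and 46 did not pass. These rises were fewer without control replicate 4, at 13 and 9, and with 1 spread shared by all 22 arrays, at 6 and 2, and the respiratory chain had 10 without control replicate 3. NDUFC1 rose by 0.59 ± 0.14, NDUFA13 by 0.59 ± 0.15 and NDUFA3 by 0.54 ± 0.12, and all 3 calls were lost in that shared fit. MRPL42 fell by 1.07 ± 0.12 and MRPL23 by 0.94 ± 0.11. COQ9, needed for coenzyme Q synthesis, read 573, 693, 684 and 486 units after COP1 siRNA and 1803, 1835, 1604 and 1531 units after control siRNA (-1.38 ± 0.12; adjusted p = 2.9e-08), while 3 of 12 genes of that pathway rose (25%). Of 65 cytosolic ribosome genes tested, none rose and 4 fell (6.15%), RPS7 by 0.60 ± 0.13 and RPS26 by 0.57 ± 0.11, and 2 fell without control replicate 1. The RPS7, RPS26 and MRPL23 calls did not pass with the shared spread. The proteasome had 11 rises (35.5%) and 2 falls (6.45%) among 31 tested. PSMA4, a core subunit, was down to 1522, 1263, 1467 and 1682 units against 3734, 3557, 3466 and 3646 units (-1.24 ± 0.11), and the lid subunit PSMD3 was up by 0.75 ± 0.13. Leaving out control replicate 1, 2 or 4 lowered the rises to 7.

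Glucose metabolism genes changed unevenly. Of 29 hypoxia and glycolysis genes tested, 11 rose (37.9%) and 3 fell (10.3%), against 17.2% and 16.8% of all genes. The rises fell to 6 without COP1 siRNA replicate 1 or without control replicate 1 or 2. HIF1A, the oxygen-regulated factor, read 59.5, 48.1, 96.7 and 68.0 units after COP1 siRNA and 274, 262, 200.3 and 331 units after control siRNA (-1.25 ± 0.13; adjusted p = 3.4e-07), and a second probe fell by 1.10. PFKFB3, which makes the activator of phosphofructokinase, rose by 1.10 ± 0.11, the glucose transporter gene SLC2A3 by 0.66 ± 0.11, and hexokinase 2, HK2, fell by 0.69 ± 0.10. In the IGF axis 2 of 10 tested rose (1 without COP1 siRNA replicate 4 or control replicate 1) and 2 fell, 20% each and near the shares of all genes. The receptor gene IGF1R fell by 0.81 ± 0.11 and STC2 by 0.57 ± 0.10.

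Cytoskeletal and adhesion genes held the largest share of rises after antigen presentation, 18 of 32 tested (56.25%) with 2 falls (6.25%) and a median of 0.33. Over all genes 17.2% rose and 16.8% fell. CDH1, the epithelial cadherin, read 1572, 1319, 1972 and 1852 units after COP1 siRNA and 664, 821, 807 and 736 units after control siRNA (1.06 ± 0.12; adjusted p = 1.7e-06). The myosin light chain gene MYL9 rose by 1.10 ± 0.15, with replicate 2 highest at 626, 1079, 561 and 530.3 units over replicates 1 to 4, and the actin-binding protein genes TAGLN and TAGLN2 rose by 0.90 ± 0.11 and 0.84 ± 0.12. With any 1 array left out the rises numbered 12 to 18 and the falls 1 or 2. Zinc transporter and metallothionein genes gave 3 rises (14.3%) and 2 falls (9.52%) among 21 tested, below the shares of all genes. SLC30A1, which exports zinc from the cell, rose by 0.84 ± 0.12. Of 12 housekeeping genes tested, 1 rose (8.33%) and 2 fell (16.7%). GAPDH (-0.05 ± 0.11) and ACTB (0.06 ± 0.10) did not pass. HPRT1 fell by 1.15 ± 0.12 with 840.2, 583, 881 and 852 units after COP1 siRNA against 1833, 1867, 1729.6 and 1879 units after control siRNA. TUBB fell by 0.58 ± 0.13 and PGK1 rose by 0.34 ± 0.10.

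**Figure D4:**
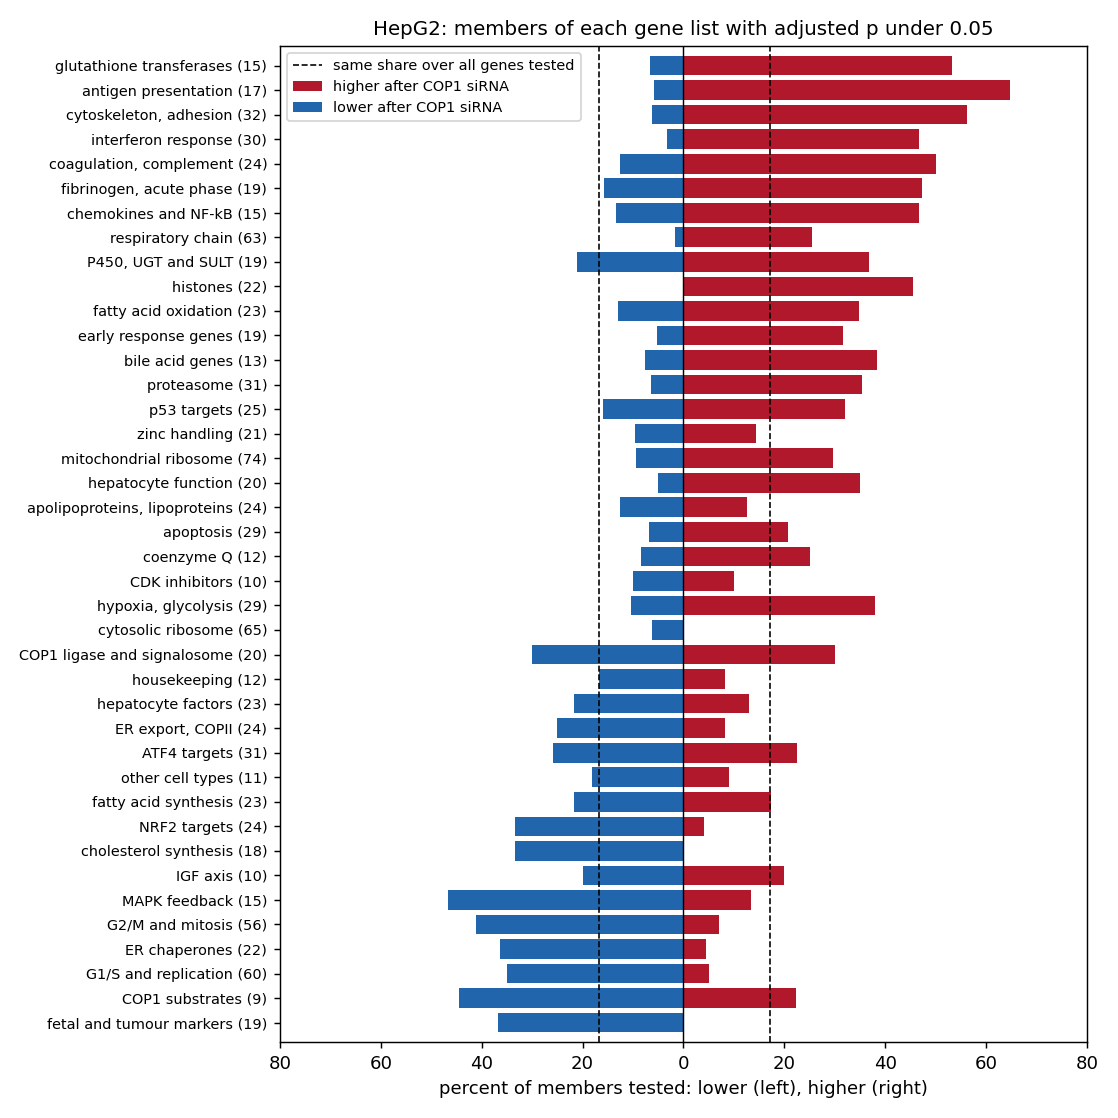
Percent of the members tested of each gene list that rose (red, right) or fell (blue, left) after COP1 siRNA in HepG2, ordered by the list's median log2 fold change, with the number tested in parentheses. Dashed lines mark the shares over all 10714 genes, 17.2% higher and 16.8% lower, and a gene may stand in more than 1 list. Glutathione transferases and antigen presentation head the plot and fetal and tumour markers close it.

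The response of HepG2 was set against those of Huh7 and Hep3B, whose arrays and controls are their own. The HepG2 response differed from the mean of the other responses for 3490 of 10714 genes (32.6%) by the limma contrast. Calls shared with the other lines were counted by direction. Of the 166 genes down by at least 1 in HepG2, 102 fell in Huh7 (61.4%), 94 in Hep3B (56.6%) and 77 in both (46.4%). Among all genes tested, 17.5% fell in Huh7, 9.53% in Hep3B and 4.42% in both. Of the 50 genes up by at least 1, 18 also rose in Huh7 (36%), 2 in Hep3B (4%) and 2 in both (4%). Among all genes tested, 19.7% rose in Huh7, 10% in Hep3B and 5.18% in both. Over all HepG2 calls, 280 of 1797 falls fell in both other lines, which is 15.6% of the HepG2 falls and 59.1% of the 474 genes low in both. In the same way 47 of 1838 rises rose in both, 2.56% of the HepG2 rises and 8.47% of the 555 genes high in both. In the other lines 25 of the 50 large rises and 9 of the 166 large falls were above background on no Hep3B array, and 8 and 3 on no Huh7 array. The part of dimness in the difference was not tested.

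CANX, CLINT1, MMGT1, COX7A2, MRPL18, RCC2, FXR1 and SURF4 fell in all 3 lines. CANX fell by 2.55 in HepG2, with -2.57 in Huh7 and -1.70 in Hep3B. SPP1 gave -2.17 in HepG2, 0.00 in Huh7 and 0.13 in Hep3B, and was above background on all arrays of all lines. The difference of -2.24 ± 0.14 from the mean of the other lines passed (adjusted p = 1.0e-10). NQO1 gave -2.39 in HepG2 and -2.32 in Huh7, and was above background on no Hep3B array. GSTA1 was above background on no Huh7 and no Hep3B array. FGA gave 1.57 in HepG2, -0.45 in Huh7 and 0.09 in Hep3B, with a difference of 1.75 ± 0.20 (adjusted p = 1.2e-06). For CXCL8, DDIT4, HSP90B1 and HMMR the HepG2 change was opposite in sign to changes that passed in both other lines. CXCL8 gave -0.63 in HepG2, 2.15 in Huh7 and 1.55 in Hep3B, and DDIT4 gave 0.85, -1.59 and -1.41 in the same order of lines.

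**Figure D5:**
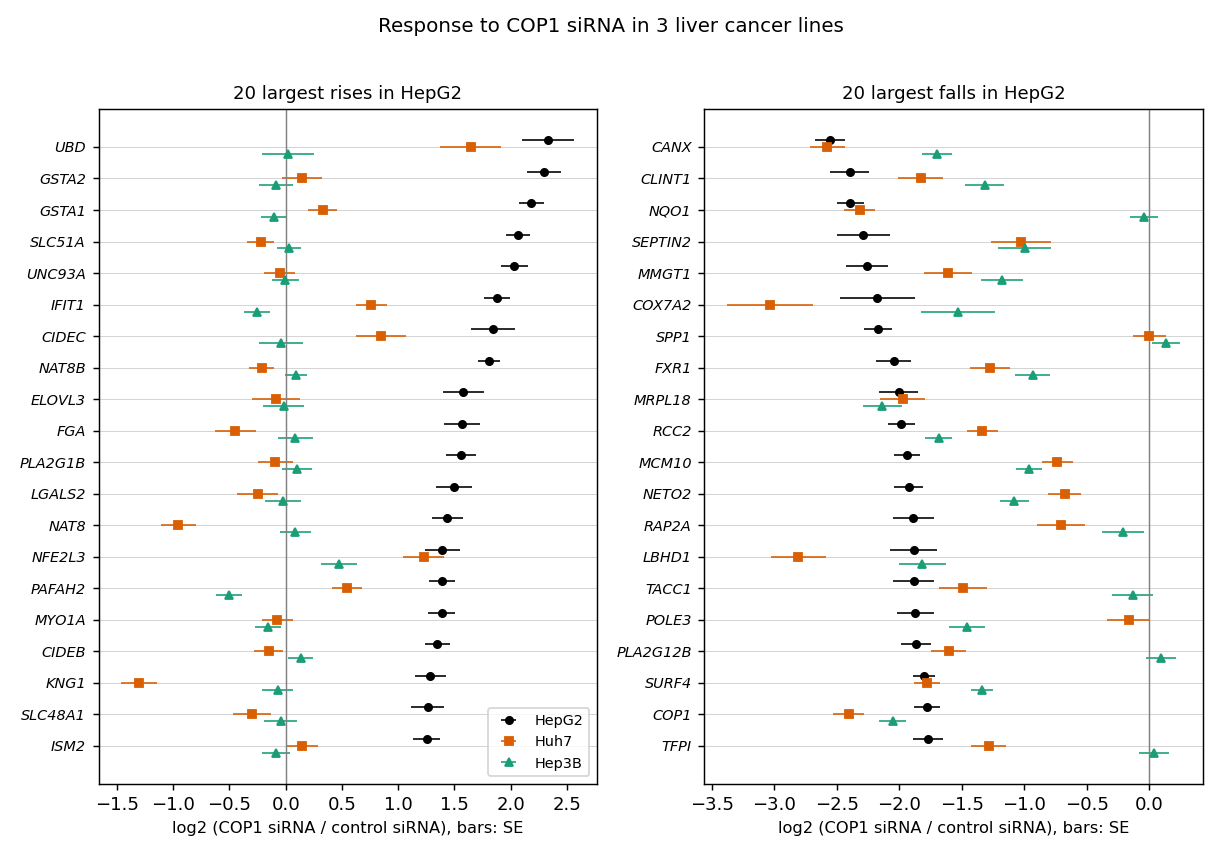
Log2 fold change of COP1 siRNA over control siRNA with SE in HepG2 (black circles), Huh7 (orange squares) and Hep3B (green triangles), from the fit on all 22 arrays, for the 20 largest rises (left) and 20 largest falls (right) of HepG2. Of the 20 falls, 13 also fell in both other lines, and of the 20 rises 1, NFE2L3, rose in both.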

How the data were processed

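RNA of 22 cell line samples was measured on Illumina Ref-8 v3 arrays, of which the 8 HepG2 arrays are reported. The authors deposited probe intensity on a linear scale, and GenomeStudio 2009.1 is named per the submitters' processing notes. The values behave as background-subtracted and quantile-normalized, with 23.7% of them below 0. A further 44 columns of per-sample values could not be tied to samples and were not used. Of 24526 probes, 21834 had 1 gene symbol, 0 had several and 2692 had none in the platform annotation, and 21813 matched a RefSeq gene of GRCh38.p14. Intensities were corrected with normexp (offset 50) and quantile-normalized over the 22 arrays in limma 3.58.1 (R 4.3.3). Detection p-values were not used. Instead, the background threshold was the 0.98 quantile of the sizes of negative values, 21.8, and 12525 probes above it on at least 4 of the 8 HepG2 arrays were kept. Each gene took its brightest probe, giving 10714 genes, of which 9581 had a symbol.

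The model was fitted on the 8 HepG2 arrays with lmFit and eBayes, and Benjamini-Hochberg adjustment ran over all 10714 genes. Differences between lines came from 1 model of 22 arrays. Named genes were COP1, the measured substrates, the 20 largest rises and 20 largest falls whose groups did not overlap, up to 4 changed members of each list, and members needed as known regulators or markers. The members and lists were chosen with earlier results of these data known. On simulated data for the HepG2 comparison with 10714 genes, 50 genes were changed by 0.5, 100 by 1 and 50 by 2 on the log2 scale. Of these, 44%, 98% and 100% were recovered, with 4 false calls. The simulation changed far fewer genes than the 3635 called in the data and drew noise independently for each value. Its rates therefore cannot be carried over to the data. Array depth is not a count, so the number of arrays limits the precision. Samples with the same replicate number did not deviate together, with correlations of -0.07, -0.09, -0.08 and 0.13, and the labels name no pairing. Alternatives covered background correction, normalization, filter, spread, array weights, thresholds, a replicate block and each array left out. Promoter sequences were those of RefSeq, found for 176 of 208 named genes.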

Additional observations from a re-analysis of the deposited data

Results flagged for a closer look

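In 17 of 416 groups of 4 arrays, formed by the 208 named genes and the 2 siRNAs, the highest or lowest array lay far from the other 3, by Dixon's ratio of the gap to the group's whole range. Chance flags about 1 in 20 such groups. For COP1 siRNA replicate 1 the ratio was 0.840 for UGGT1 (high) and 0.846 for ATF6B (low). For COP1 siRNA replicate 2 the ratio was 0.850 for RRM2 (low), 0.833 for SEC23B (low), 0.884 for HPRT1 (low), 0.838 for CUL4A (low) and 0.839 for AHR (low). For COP1 siRNA replicate 3 the ratio was 0.935 for CEBPG (low). For COP1 siRNA replicate 4 the ratio was 0.895 for NFE2L3 (high). For control siRNA replicate 1 the ratio was 0.904 for JUN (high) and 0.926 for DDB1 (low). For control siRNA replicate 2 the ratio was 0.941 for CRAT (low). For control siRNA replicate 3 the ratio was 0.830 for SLBP (low), 0.907 for CDKN1B (low) and 0.943 for PDGFRB (high). For control siRNA replicate 4 the ratio was 0.883 for H3C10 (high) and 0.911 for LYZ (low).

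For 76 of the 208 named genes the HepG2 response differed from that of Huh7 and from that of Hep3B, each by limma with an adjusted p under 0.05 and in the same direction, as it did for 1435 of the 10714 genes tested. The rule picked these 76 by that contrast. For 8 of them the probe was above background on no Huh7 array, for 26 on no Hep3B array, and for 29 on none of at least 1 of those lines, and the part of this in the differences was not tested. Values are the HepG2 response minus the mean of the Huh7 and Hep3B responses on the log2 scale. Among the COP1 ligase, its substrates and signalling, HepG2 was more positive for PNPLA2 (0.98). Among the COP1 ligase, its substrates and signalling, HepG2 was more negative for ETS2 (-1.07). Among interferon, antigen presentation and NF-kB genes, HepG2 was more positive for IFIT1 (1.63), ISG20 (1.65), IRF9 (1.11), UBE2L6 (1.20), CX3CL1 (0.92) and CD14 (1.75). Among interferon, antigen presentation and NF-kB genes, HepG2 was more negative for CXCL8 (-2.48). Among redox and detoxification genes, HepG2 was more positive for GSTA2 (2.27), GSTA1 (2.07), GSTM4 (0.86), CYP26A1 (0.82), SULT2A1 (0.82) and SLC51A (2.16). Among redox and detoxification genes, HepG2 was more negative for TXNRD1 (-0.84), NFE2L2 (-1.35), AKR1B10 (-1.17) and UGT2B10 (-1.23). Among hepatocyte and plasma protein genes, HepG2 was more positive for FGA (1.75), FGG (1.31), HPX (1.35), KNG1 (1.97), VTN (0.96) and SERPINA6 (0.98). Among hepatocyte and plasma protein genes, HepG2 was more negative for TFPI (-1.15), CPS1 (-0.61), SPP1 (-2.24), LIN28B (-1.60) and PROX1 (-0.99). Among lipid and glucose genes, HepG2 was more positive for APOA4 (0.84), CPT1A (0.66), ACADS (0.81), CRAT (0.85), PFKFB3 (0.78) and SLC2A3 (0.80). Among lipid and glucose genes, HepG2 was more negative for APOA5 (-0.71) and HMGCS1 (-0.86). Among cell cycle and histone genes, HepG2 was more positive for H3C10 (0.79), H4C11 (0.88) and H1-2 (0.68). Among cell cycle and histone genes, HepG2 was more negative for MCM10 (-1.09), E2F7 (-1.18), TOP2A (-1.45), CENPF (-1.53), HMMR (-1.69), ASPM (-1.47) and CDK1 (-1.17). Among secretory pathway and ATF4 genes, HepG2 was more positive for DDIT4 (2.35). Among secretory pathway and ATF4 genes, HepG2 was more negative for HSP90B1 (-1.63), DNAJB9 (-0.91) and MCFD2 (-0.67). Among mitochondrial, ribosomal and proteasome genes, HepG2 was more positive for MRPL2 (0.89), COQ10A (1.17) and PSMD3 (0.91). Among mitochondrial, ribosomal and proteasome genes, HepG2 was more negative for MRPL42 (-0.62) and RPL22 (-0.71). Among zinc, cytoskeletal and housekeeping genes, HepG2 was more positive for CDH1 (0.80) and TAGLN2 (0.91). Among zinc, cytoskeletal and housekeeping genes, HepG2 was more negative for SLC30A9 (-0.93). Among other genes among the largest rises and falls, HepG2 was more positive for UNC93A (2.06), CIDEC (1.44), NAT8B (1.87), ELOVL3 (1.63), PLA2G1B (1.56), LGALS2 (1.63), NAT8 (1.87), PAFAH2 (1.37), MYO1A (1.50), CIDEB (1.36), SLC48A1 (1.44) and ISM2 (1.22). Among other genes among the largest rises and falls, HepG2 was more negative for SEPTIN2 (-1.27), FXR1 (-0.94), NETO2 (-1.05) and RAP2A (-1.43).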

How the results depend on the processing

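None of the 208 named genes that was called changed sign under any alternative run, while CUL4A, E2F1 and GAPDH, which did not pass, and list medians near 0 (the ligase, hepatocyte factor, hypoxia and ER export lists among them) changed sign in some. COP1 was lower under every alternative run, between -1.95 and -1.73. The 3635 changed genes numbered 2284 at an adjusted p under 0.01 and 216 with a change of at least 1, and the 3490 genes differing from the other lines numbered 2067 and 500 at the same settings. With 1 array left out, 2878 to 3495 genes were changed, 2885 to 3303 differed from the other lines, and COP1 ranged between -1.83 and -1.73. With 1 spread shared by all 22 arrays 2698 genes were changed, without normexp 3059 and without a filter on dim probes 3114. Under cyclic loess 1608 rose and 1933 fell. The replicate block gave 3460 changed genes, and since the labels do not say whether the replicate numbers pair the samples it is given as a count only. Among 208 named genes the alternatives gave 202 lost calls and 18 gained calls, counted over all settings. Many of the lost calls come from the setting that asks for a change of at least 1, which drops every smaller change by definition. Apart from the change of GSTM4 probe given above, the causes of the others were not tested. An offset of 16 gave 3353 changed genes. The number of arrays and a single siRNA limit all comparisons, and the array cannot show changes in COP1's protein substrates.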
